A study of Mus musculus with 22 samples.

Results

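Secreted antimicrobial proteins of myeloid cells were described in 22 RNA sequencing libraries of cultured mouse microglia. The group held 8 genes listed by symbol (Lyz1, Lyz2, Slpi, Camp, Lcn2, Saa3, S100a8 and S100a9), of which 7 were among the 15725 symbols of the expression table used here. S100a9 was not analysed here. All 7 passed the filter on low values, at least 1 FPKM in at least 3 libraries, as did 11070 genes in all. Camp passed with a highest value of 3.08 FPKM. The genes were selected on expression values of these same libraries, with the LPS+dNC libraries in view, so every difference that involves LPS+dNC is given as a description, with no test. The other comparisons were tested, but the genes were chosen with earlier results of these libraries known. Their p-values are therefore not independent of that choice.

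The cells were microglia shaken off mixed glial cultures from the cortex of newborn C57BL/6 mice aged 1 to 3 days. Every culture, controls included, had received lipopolysaccharide (LPS, from the outer membrane of bacteria, a strong activator of macrophages) at 100 ng/ml for 24 h, and no culture without LPS was analysed here. The groups were LPS+CLA (CLA at 50 nM, not spelled out in the labels, n = 6), LPS+Baf A1 (bafilomycin A1 at 10 nM, an inhibitor of the vacuolar proton pump that blocks late autophagy, n = 5), LPS+siAtg5 (an siRNA against the autophagy gene Atg5 at 50 nM, transfected with a cationic lipid for 48 h, n = 5), LPS+dNC (the comparator that the design text gives for LPS+siAtg5, not spelled out and with no dose given, n = 3) and LPS alone (n = 3). The study's questions were how blocking autophagy with Baf A1 or siAtg5, and how CLA, change LPS-treated microglia. LPS cultures were not transfected as far as the labels say, so in LPS+siAtg5 against LPS the siRNA and the transfection cannot be told apart. The labels do not tell whether replicates were separate cultures, so all p-values measure only how far these samples spread, and that spread may be technical.

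Macrophages and neutrophils release a set of small proteins that act on microbes directly. Lysozymes cut the bacterial cell wall, lipocalin 2 withholds iron by binding bacterial siderophores, the S100A8 and S100A9 pair withholds zinc and manganese, cathelicidin disrupts membranes, and SLPI inhibits neutrophil serine proteases and is itself antibacterial. Saa3 is a serum amyloid A made locally by macrophages. In macrophages and microglia, Lcn2 and Saa3 are well-known LPS-induced genes, whereas Camp and S100a8 are best known from neutrophils.

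In the GENCODE M21 annotation of GRCm38, all 8 are protein-coding genes. No label or header names the build behind the deposited values. Lyz2 (chr10:117277331-117282321) and Lyz1 (chr10:117287797-117292868) lie side by side on the minus strand. S100a8 (chr3:90668978-90670035, plus strand) and S100a9 (chr3:90692632-90695721, minus strand) also neighbour each other. Lcn2 (chr2:32384633-32388252) and Slpi (chr2:164354070-164389095) are on the minus strand of chromosome 2, Saa3 (chr7:46711998-46715700) and Camp (chr9:109847379-109849617) on the minus strands of chromosomes 7 and 9.

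RefSeq promoters (250 bases before to 50 after the start, GRCm38.p6) matched all 8 genes. They are shown for the pair of lysozymes, whose values in LPS+dNC stood on opposite sides of all other groups, and for Lcn2 and Saa3, both highest in LPS+dNC and lowest in LPS+siAtg5. They are Lyz1 (chr10:117292819-117293118), Lyz2 (chr10:117282223-117282522), Lcn2 (chr2:32387690-32387989) and Saa3 (chr7:46715627-46715926), all read 5′ to 3′ on the minus strand, with matches to the C/EBP motif in capitals.
Lyz1: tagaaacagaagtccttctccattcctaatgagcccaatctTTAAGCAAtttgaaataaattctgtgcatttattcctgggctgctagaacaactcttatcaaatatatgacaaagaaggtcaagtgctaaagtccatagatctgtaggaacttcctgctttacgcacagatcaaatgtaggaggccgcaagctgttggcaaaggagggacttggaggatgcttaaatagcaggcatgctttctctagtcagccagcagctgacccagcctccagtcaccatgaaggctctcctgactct
Lyz2: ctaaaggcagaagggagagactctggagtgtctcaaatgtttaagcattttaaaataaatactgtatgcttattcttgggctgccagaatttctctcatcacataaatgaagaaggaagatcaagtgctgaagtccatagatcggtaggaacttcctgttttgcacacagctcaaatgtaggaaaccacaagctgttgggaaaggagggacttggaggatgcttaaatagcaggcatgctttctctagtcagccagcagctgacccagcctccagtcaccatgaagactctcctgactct
Lcn2: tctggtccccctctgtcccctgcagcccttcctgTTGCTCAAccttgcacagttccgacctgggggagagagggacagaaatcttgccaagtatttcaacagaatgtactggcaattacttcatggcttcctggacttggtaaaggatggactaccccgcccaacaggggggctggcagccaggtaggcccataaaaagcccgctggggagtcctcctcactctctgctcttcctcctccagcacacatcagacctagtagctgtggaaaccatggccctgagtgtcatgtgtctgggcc
Saa3: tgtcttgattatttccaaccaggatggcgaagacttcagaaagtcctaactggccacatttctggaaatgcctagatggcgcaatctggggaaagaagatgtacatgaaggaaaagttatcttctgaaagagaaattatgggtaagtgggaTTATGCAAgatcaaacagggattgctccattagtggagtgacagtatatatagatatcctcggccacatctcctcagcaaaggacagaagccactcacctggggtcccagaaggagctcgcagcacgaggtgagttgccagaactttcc

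The motif searched as C/EBP was TTGCNNAA on both strands. It matched 5 of 8 genes, at bases -209 to -202 from the start in Lyz1, -216 to -209 in Lcn2, -99 to -92 in Saa3, -241 to -234 in Slpi and -236 to -229 in S100a9, against 10.8% of all 32851 promoters of the same length. The 2 lysozyme promoters were identical at 254 of 290 aligned bases (87.6%, with 20 gap bases), and the window of Lyz2 held no C/EBP match. TATAAA matched S100a8 and S100a9, at bases -30 to -25 and 1 to 6, against 13.6% of all promoters. The NF-kB consensus matched Camp alone, at bases 36 to 45 after the start and on both strands, against 8.46% of all. The AP-1 motif TGANTCA matched 0 of 8, against 7.81% of all. The matches overlapped no other motif searched, and each is a description of letters only.

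Values are FPKM, fragments scaled to transcript length and to the mapped fragments of the library, which sets levels of different genes on one scale per length. The column headers of the 3 LPS+dNC libraries name no unit. Their range and sums fit FPKM, and they were taken as such, a limit on every level of that group. Sums of FPKM were 469750 to 575125 per library and the depth is unknown. The targeted gene Atg5 averaged 13.1 FPKM in LPS+siAtg5, against 22.3 FPKM in LPS+dNC and 20.1 FPKM in LPS (log2 difference to LPS -0.58, SE 0.0482, limma adjusted p = 2.91e-10). Of the microglial markers, Siglech was at or near 0 in every group, and Cx3cr1 was 0.11 to 0.27 FPKM in LPS+dNC, against 5.88 to 9.63 FPKM in LPS. The microglial marker sum was 3043 to 3154 FPKM in LPS+CLA, 2721 to 2815 FPKM in LPS+Baf A1, 2354 to 2493 FPKM in LPS+siAtg5, 1779 to 1848 FPKM in LPS+dNC and 2473 to 2951 FPKM in LPS. The sum of 15 astrocyte markers was 404.1 to 472.5 FPKM in LPS+siAtg5, 11.3 to 16.7 FPKM in LPS+CLA, 19.5 to 22.9 FPKM in LPS+Baf A1, 6.32 to 31.6 FPKM in LPS+dNC and 10.9 to 17.4 FPKM in LPS. In LPS+siAtg5 against LPS 14 of 14 tested markers rose, where 61.2% of all tested genes rose. Sums of neuron markers (59.8 to 74.9 against 13.8 to 17.5 FPKM) and of fibroblast, mural and endothelial markers (130 to 168 against 30.6 to 31.3 FPKM) were also higher in LPS+siAtg5 than in LPS. Their part in the LPS+siAtg5 values below was not tested. In bulk libraries, fewer cells of a type and less RNA per cell cannot be told apart.

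One library in each of 3 groups lay apart from its mates over all genes. The SD of the log2 difference to a mate was 0.267 to 0.273 for LPS+CLA replicate 2 (0.139 to 0.156 among the other LPS+CLA libraries), 0.351 to 0.388 for LPS+dNC replicate 1 (0.187 between the other two) and 0.273 to 0.284 for LPS replicate 3 (0.158 between the other two). Several results that use them, but not all, are given below with and without them.

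Lyz1 and Lyz2 are neighbouring copies of a lysozyme gene. Lyz2 is the lysozyme of macrophages and Lyz1 that of intestinal Paneth cells. In microglia, Lyz2 was among the 3 highest genes of every library outside LPS+dNC and Lyz1 stayed near 10 FPKM or less. Lyz2 rose in LPS+Baf A1 and LPS+CLA and slightly in LPS+siAtg5 against LPS, the last with its sign turned under another scaling, and Lyz1 rose in LPS+Baf A1 and LPS+CLA.

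Lyz2 was 12676 (lowest), 13100 (median) and 13504 FPKM (highest) in LPS+CLA, and 13457, 13395, 13071, 13284 and 13204 FPKM in LPS+Baf A1. It was 10200, 10624, 10354, 10512 and 11206 FPKM in LPS+siAtg5. The LPS+dNC libraries held 2549, 2655 and 2546 FPKM, against 9651, 9091 and 9784 FPKM in LPS. LPS+Baf A1 and LPS+CLA overlapped each other and lay above every LPS+siAtg5 library, which lay above every LPS library, and LPS+dNC lay below all of them. The log2 difference to LPS was 0.48 (SE 0.0382, limma adjusted p = 4.18e-10) in LPS+Baf A1 and 0.47 (SE 0.037, limma adjusted p = 2.39e-10) in LPS+CLA, where median-of-ratios scaling gave 0.31. In LPS+siAtg5 it was 0.15 (SE 0.0382, limma adjusted p = 0.000962), and this small rise turned to -0.18 under median-of-ratios scaling, which brings the typical gene close to no difference. LPS+CLA and LPS+Baf A1 differed by -0.02 in log2 (95% interval -0.08 to 0.05, limma adjusted p = 0.679), and by -0.10 with a call under median-of-ratios scaling (limma adjusted p = 0.0417).

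Lyz1 was 6.89 (lowest), 9.24 (median) and 10.3 FPKM (highest) in LPS+CLA, and 7.83, 6.89, 7.25, 8.00 and 6.79 FPKM in LPS+Baf A1. It was 4.09, 5.52, 5.50, 5.79 and 5.43 FPKM in LPS+siAtg5. Levels in LPS+dNC were 139, 148 and 133 FPKM, against 4.35, 3.98 and 5.88 FPKM in LPS. Every LPS+dNC library was above every other library, LPS+Baf A1 and LPS+CLA lay above all LPS libraries, and LPS+siAtg5 overlapped LPS. The log2 difference to LPS was 0.82 (SE 0.108, limma adjusted p = 7.21e-07) in LPS+CLA and 0.55 (SE 0.112, limma adjusted p = 0.0002) in LPS+Baf A1. LPS+CLA was above LPS+Baf A1 by 0.27 (SE 0.0926, limma adjusted p = 0.019), a call lost under both other scalings (0.19 and 0.16). In LPS+siAtg5 the difference to LPS was 0.13 (95% interval -0.10 to 0.37, limma adjusted p = 0.278), and without LPS replicate 3 it was 0.27 and called (limma adjusted p = 0.0368), whereas median-of-ratios scaling gave -0.14 and quantile normalization -0.36.

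In LPS+dNC the 2 lysozymes moved to opposite sides of the other groups. The ratio of group means, LPS+dNC to LPS, was 29.5 for Lyz1 and 0.272 for Lyz2, with log2 differences of 4.63 (SE 0.125) and -1.88 (SE 0.0427). LPS+siAtg5 against LPS+dNC gave -4.50 (SE 0.112) for Lyz1 and 2.03 (SE 0.0382) for Lyz2. Lyz1 made up 4.95 to 5.28% of the lysozyme sum in LPS+dNC, against 0.0401 to 0.0801% in the libraries of the other 4 groups. The sum itself was 2679 to 2802 FPKM in LPS+dNC, against 9095 to 9790 FPKM in LPS, so the lower sum follows Lyz2. The 2 transcripts are near-identical copies, with 1211 of 1262 aligned bases in common (96.0%, with 55 gap bases), and 16.1% of the 50-base windows of Lyz1 also occur in Lyz2. How the authors' counting split such fragments, and whether LPS+dNC was counted with the same gene annotation as the other groups, is not stated, so the level of Lyz1 beside a far more abundant Lyz2, and both lysozyme ratios of LPS+dNC to LPS, are uncertain.

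**Figure D1:**
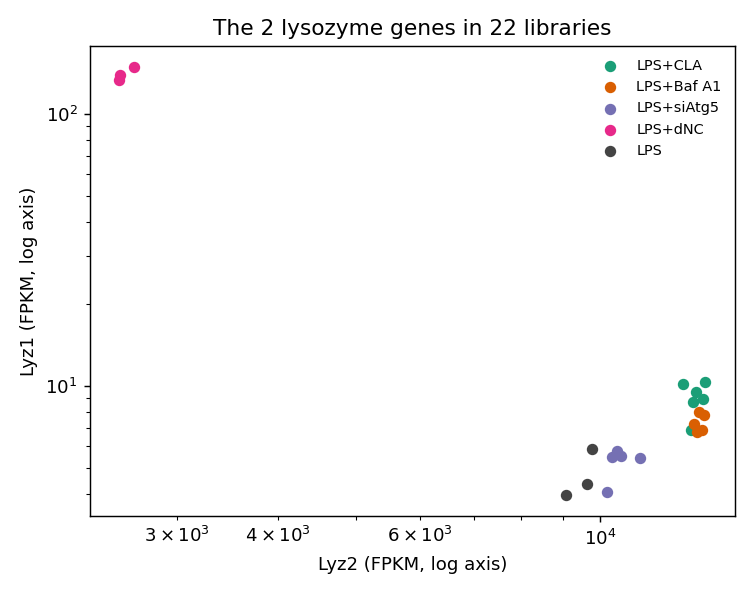
Lyz1 and Lyz2 in each of the 22 libraries plotted against each other, in FPKM on log axes, with 1 point a library coloured by group. The 3 LPS+dNC libraries sit apart, with Lyz1 at 133 to 148 FPKM and Lyz2 at 2546 to 2655 FPKM.

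Lcn2, the siderophore-binding protein, and Saa3, the acute-phase protein, were with Lyz2 the most abundant of the 7. Both were highest in LPS+dNC and lowest in LPS+siAtg5, and both fell in LPS+siAtg5 against LPS. Saa3 rose in the Baf A1 and CLA groups. Saa3 ranked first of all genes in each LPS+dNC library and among the first 2 in every library of the other groups.

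Saa3 was 29516 (lowest), 31017 (median) and 37596 FPKM (highest) in LPS+CLA, and 32762, 34026, 35092, 34737 and 33957 FPKM in LPS+Baf A1. It was 13484, 14616, 13152, 13749 and 16524 FPKM in LPS+siAtg5. In LPS+dNC it reached 42637, 45422 and 42817 FPKM, against 26017, 25684 and 29165 FPKM in LPS. The groups stood in the order LPS+dNC, LPS+Baf A1, LPS+CLA, LPS and LPS+siAtg5, and among neighbours in that order LPS+Baf A1 and LPS+CLA alone overlapped. The log2 difference to LPS was -0.92 (SE 0.0726, limma adjusted p = 1.37e-10) in LPS+siAtg5 and 0.34 (SE 0.0726, limma adjusted p = 0.000339) in LPS+Baf A1. The LPS+CLA difference was 0.23 (SE 0.0703, limma adjusted p = 0.0064), which fell to 0.08 under median-of-ratios scaling and was no longer called (limma adjusted p = 0.428). LPS+CLA against LPS+Baf A1 gave -0.11 (95% interval -0.23 to 0.02, limma adjusted p = 0.129). Without LPS+CLA replicate 2, the highest of its group, that difference was -0.16 and called (limma adjusted p = 0.01), as it was under median-of-ratios scaling (-0.20, limma adjusted p = 0.0295), whereas quantile normalization gave 0.06. Quantile normalization gives equal values to equal ranks, so the differences to LPS of this top-ranked gene were 0.00 there in LPS+siAtg5 and LPS+Baf A1.

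Lcn2 was 926 (lowest), 977 (median) and 1849 FPKM (highest) in LPS+CLA, and 1554, 1509, 1378, 1410.1 and 1391 FPKM in LPS+Baf A1. It was 785, 868, 736, 796 and 994 FPKM in LPS+siAtg5. The LPS+dNC libraries held 6141, 6540.2 and 6964 FPKM, against 1178, 1284 and 1632 FPKM in LPS. LPS+dNC lay above every other library, LPS+siAtg5 lay below every LPS library, and LPS+Baf A1 and LPS+CLA overlapped LPS. The log2 difference to LPS was -0.70 in LPS+siAtg5 (SE 0.163, limma adjusted p = 0.000586). In LPS+Baf A1 it was 0.10 (95% interval -0.24 to 0.44, limma adjusted p = 0.635), and without the 3 libraries that lay apart it was 0.23 and called (limma adjusted p = 0.0114). In LPS+CLA it was -0.33 (95% interval -0.66 to 0.00, limma adjusted p = 0.0758), and without LPS+CLA replicate 2 it was -0.48 and called (limma adjusted p = 4.99e-05). LPS+CLA minus LPS+Baf A1 was -0.43 (SE 0.135, limma adjusted p = 0.0111), and -0.25 after quantile normalization.

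Set against LPS+dNC, the comparator that the design names, LPS+siAtg5 was lower for both genes, with log2 differences of -2.97 (SE 0.163) for Lcn2 and -1.61 (SE 0.0726) for Saa3. LPS+dNC was in turn above LPS by 2.27 (SE 0.182) for Lcn2 and 0.70 (SE 0.0811) for Saa3, which are ratios of means of 4.80 and 1.62. The size of the LPS+siAtg5 difference therefore depends on the comparator, and the 2 comparisons share the LPS+siAtg5 libraries. Saa3 with Lyz2 took 4.93 to 5.74% of the summed FPKM in LPS+siAtg5, 8.30 to 9.78% in LPS+CLA, 8.86 to 9.24% in LPS+Baf A1, 7.86 to 8.61% in LPS+dNC and 7.33 to 7.69% in LPS. Saa1, a liver-type serum amyloid A that shares 1.78% of the 50-base windows of Saa3, averaged 21.1 ± 1.93 FPKM in LPS+dNC, against 1.11 ± 0.232 FPKM in LPS (SD, n = 3 each).

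**Figure D2:**
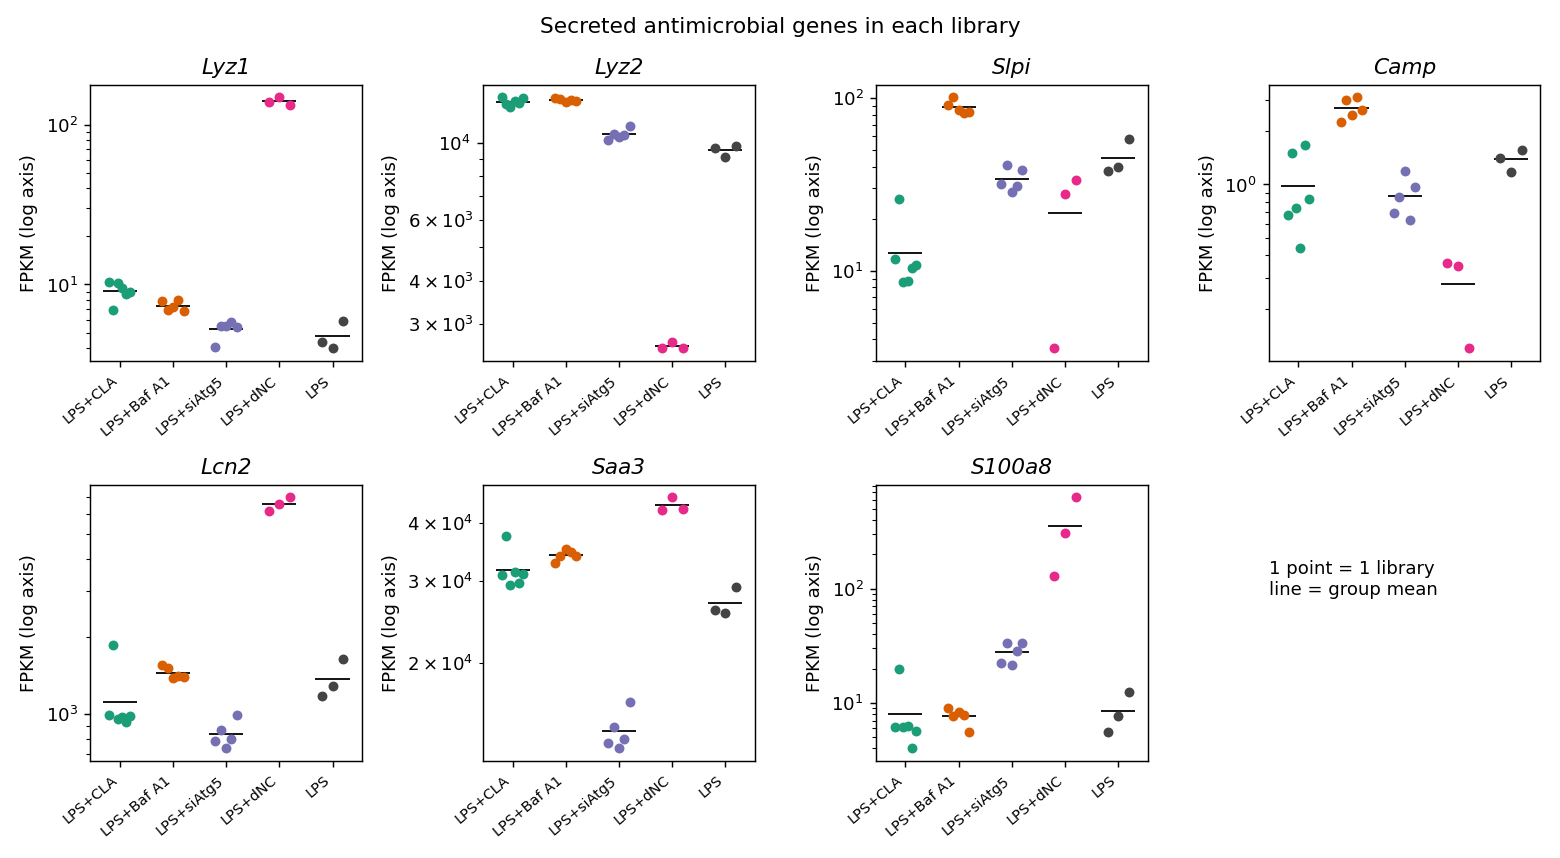
FPKM of the 7 genes in each of the 22 libraries, 1 panel a gene, on a log axis, with points for libraries and lines for group means. Lyz1, Lcn2, Saa3 and S100a8 are highest in the 3 LPS+dNC libraries, and Lyz2 is lowest there.

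S100a8 encodes the smaller subunit of calprotectin. It was near 8 FPKM in LPS+Baf A1, LPS+CLA and LPS, rose in LPS+siAtg5 against LPS, and was highest and most variable in LPS+dNC. S100a8 was 4.02 (lowest), 6.13 (median) and 19.9 FPKM (highest) in LPS+CLA, and 9.07, 7.62, 8.34, 7.80 and 5.54 FPKM in LPS+Baf A1. It was 22.5, 33.5, 21.4, 28.4 and 33.6 FPKM in LPS+siAtg5. In LPS+dNC it reached 129, 310.3 and 632 FPKM, against 5.61, 7.70 and 12.4 FPKM in LPS. Every LPS+dNC library was above every LPS+siAtg5 library, and these were above all others, whereas LPS+Baf A1, LPS+CLA and LPS overlapped. The log2 difference of LPS+siAtg5 to LPS was 1.63 (SE 0.413, limma adjusted p = 0.00137). The differences of LPS+Baf A1 and LPS+CLA to LPS were -0.09 (95% interval -0.96 to 0.77, limma adjusted p = 0.867) and -0.20 (95% interval -1.04 to 0.64, limma adjusted p = 0.683). LPS+CLA against LPS+Baf A1 gave -0.11 (95% interval -0.82 to 0.61, limma adjusted p = 0.817). These wide intervals leave room for changes of either sign, and each of the 3 differences turned sign when 1 particular library was left out (LPS replicate 3 for the first 2, LPS+CLA replicate 5 for the last).

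Against LPS+dNC, S100a8 in LPS+siAtg5 was lower, with a log2 difference of -3.38 (SE 0.413). S100a8 in LPS+siAtg5 therefore stood above LPS alone and below LPS+dNC. LPS+dNC against LPS gave 5.01 (SE 0.462), a ratio of means of 41.7. The LPS+dNC libraries themselves differed: replicate 1 was at 0.274 times the median of its mates, and without the 3 libraries that lay apart the log2 difference of LPS+dNC to LPS was 5.87. Neutrophils are known to carry large amounts of S100A8. Of 15 neutrophil markers 7 were analysed, and Cxcr2 was at 0.05 to 0.13 FPKM in LPS+dNC and at 0 in every library of LPS+CLA, LPS+Baf A1, LPS+siAtg5 and LPS. Prtn3, a neutrophil granule protease, and Cebpe, a granulocyte transcription factor, averaged at most 0.114 and 0.0567 FPKM in any group, and Stfa1 averaged 0.893 FPKM in LPS+dNC, against 0.153 FPKM in LPS. The summed level of the 7 was 131 to 157 FPKM in LPS+siAtg5, 675 to 703 FPKM in LPS+CLA, 314 to 333 FPKM in LPS+Baf A1, 161 to 226 FPKM in LPS+dNC and 285 to 317 FPKM in LPS, mostly from Csf3r, Mmp8 and Mmp9. In LPS+dNC, where S100a8 was highest, Csf3r averaged 136 ± 5.46 FPKM, against 108 ± 5.28 FPKM in LPS, and Mmp8 averaged 59.2 ± 31.5 FPKM, against 35.1 ± 1.44 FPKM, while Mmp9 averaged 6.24 ± 4.07 FPKM, against 155 ± 12.5 FPKM (SD, n = 3 each). Their part in the S100a8 levels was not tested.

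Slpi and Camp encode an antiprotease and the cathelicidin precursor. Both were highest in LPS+Baf A1, and LPS+CLA was below LPS+Baf A1 for both. Slpi fell in LPS+CLA against LPS, Camp rose in LPS+Baf A1, and the Slpi value of LPS+Baf A1 depended on the fit.

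Slpi was 8.65 (lowest), 10.6 (median) and 26.0 FPKM (highest) in LPS+CLA, and 91.4, 100.8, 85.5, 82.4 and 83.2 FPKM in LPS+Baf A1. It was 31.98, 41.0, 28.6, 30.8 and 38.1 FPKM in LPS+siAtg5. Levels in LPS+dNC were 3.54, 27.7 and 33.5 FPKM, against 38.0, 39.7 and 57.7 FPKM in LPS. All LPS+Baf A1 libraries were above, and all LPS+CLA libraries below, the LPS libraries, while LPS+siAtg5 overlapped LPS and 1 LPS+dNC library lay below every other. Slpi fell in LPS+CLA, with a log2 difference of -2.81 to LPS+Baf A1 (SE 0.368, limma adjusted p = 2.18e-06) and of -1.83 to LPS (SE 0.43, limma adjusted p = 0.000964). LPS+Baf A1 against LPS gave 0.98 (95% interval 0.05 to 1.91, limma adjusted p = 0.0662), which missed the threshold. With these 2 groups fitted alone the same 0.98 was called (limma adjusted p = 5.84e-05), and without the 3 libraries that lay apart it was 1.17 (limma adjusted p = 5.37e-08). LPS+siAtg5 against LPS gave -0.38 (95% interval -1.31 to 0.55, limma adjusted p = 0.442), and was called with these 2 groups fitted alone (limma adjusted p = 0.0331).

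The spread of Slpi in LPS+dNC came from 1 library. LPS+siAtg5 against LPS+dNC gave a log2 difference of 1.08 (SE 0.444), and 0.15 (SE 0.262) without LPS+dNC replicate 1. LPS+dNC against LPS gave -1.46 (SE 0.497), and -0.53 (SE 0.286) without that library.

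Camp was near the lower end of what was measured. It was 0.44 (lowest), 0.785 (median) and 1.67 FPKM (highest) in LPS+CLA, and 2.24, 2.97, 2.44, 3.08 and 2.63 FPKM in LPS+Baf A1. It was 0.69, 0.85, 1.19, 0.63 and 0.97 FPKM in LPS+siAtg5. Levels in LPS+dNC were 0.36, 0.35 and 0.12 FPKM, against 1.40, 1.18 and 1.57 FPKM in LPS. LPS+Baf A1 lay above and LPS+dNC below all other libraries, and LPS+CLA overlapped LPS. The log2 difference of LPS+Baf A1 to LPS was 0.62 (SE 0.155, limma adjusted p = 0.00154), and that of LPS+CLA to LPS+Baf A1 was -0.92 (SE 0.128, limma adjusted p = 2.42e-06). LPS+CLA against LPS gave -0.30 (95% interval -0.61 to 0.01, limma adjusted p = 0.0831), called at -0.38 without LPS+CLA replicate 2 (limma adjusted p = 0.025) and at -0.40 without replicate 5 (limma adjusted p = 0.0152). LPS+siAtg5 against LPS gave -0.36 (SE 0.155, limma adjusted p = 0.0403), a call lost without LPS replicate 1 or 3 or without LPS+siAtg5 replicate 1, 2 or 4 (limma adjusted p of 0.0572 to 0.135) and with a pseudocount of 0.1 (-0.64, limma adjusted p = 0.0671). Against LPS+dNC, Camp in LPS+siAtg5 differed by 0.55 (SE 0.155), and by -0.23 after quantile normalization. All other Camp differences are on the log2(FPKM + 1) scale, which understates the change of so low a gene. With a pseudocount of 0.1, the difference of LPS+CLA to LPS+Baf A1 was -1.48.

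**Figure D3:**
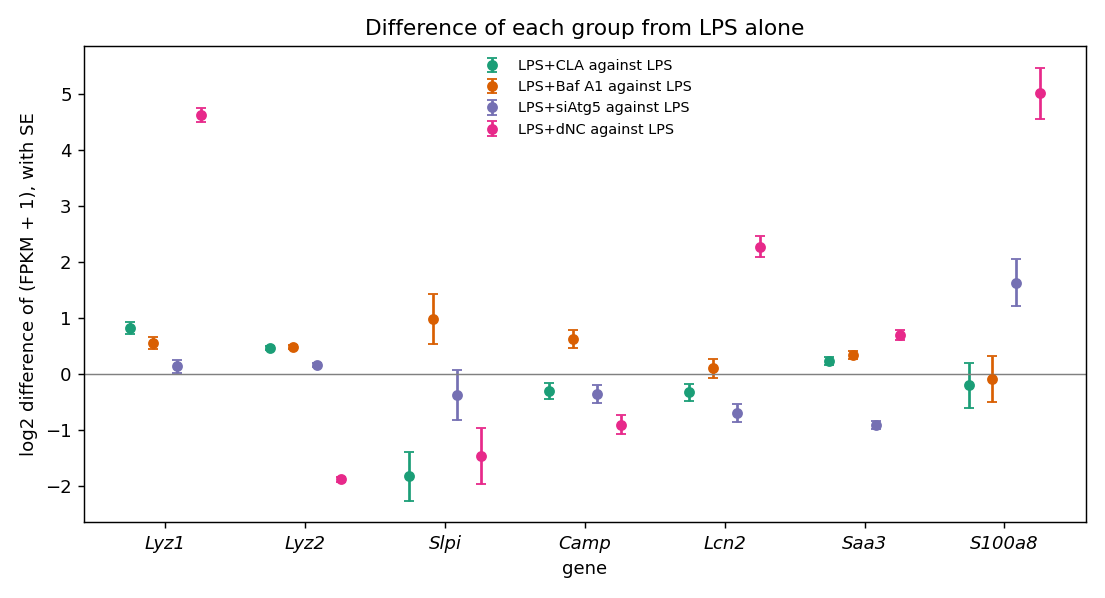
Log2 difference to LPS, on the log2(FPKM + 1) scale, of the 7 genes in the 4 other groups, as points with bars of 1 SE from the fit over all genes. LPS+dNC values are drawn as a description, and Slpi is at -1.83 in LPS+CLA and 0.98 in LPS+Baf A1.

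The comparisons with LPS share its 3 libraries and are given one by one. In LPS+Baf A1 against LPS, 4 of 7 genes rose (Lyz1, Lyz2, Camp and Saa3) and 0 fell, against 32.7% of all tested genes higher and 25.1% lower. The median log2 difference was 0.48 over the 7 and 0.04 over all genes tested. In LPS+CLA against LPS, 3 of 7 rose (Lyz1, Lyz2 and Saa3) and 1 fell (Slpi), against 40.4% of all genes higher and 22.6% lower, with medians of -0.20 and 0.09. With 7 genes and backgrounds this large, neither count sets the 7 apart. In LPS+siAtg5 against LPS, 2 of 7 rose (S100a8, and Lyz2 with the sign turned under median-of-ratios scaling) and 3 fell (Lcn2, Saa3 and Camp), against 61.2% of all genes higher and 15.6% lower, with medians of -0.36 and 0.31. The median of all genes was 0.02 under median-of-ratios scaling and -0.03 after quantile normalization, so the Lyz2 rise of 0.15 lies below the 0.31 that genes shifted on the whole. The high background of rises moved with the scaling: rises were 79.7% of all calls here, 52.7% under median-of-ratios scaling and 47.4% after quantile normalization. In LPS+CLA against LPS the same share was 64.1%, 48.4% and 54.0%. In LPS+CLA against LPS+Baf A1, 1 of 7 rose (Lyz1) and 3 fell (Slpi, Camp and Lcn2), against 35.4% of all genes higher and 19.0% lower. The share of rises there was 65.1%, 50.6% and 54.5% under the same 3 scalings.

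The comparisons with LPS+dNC are given beside their own backgrounds. In LPS+siAtg5 against LPS+dNC, Lyz2 and Camp (lower after quantile normalization) lay above and Lyz1, Lcn2, Saa3 and S100a8 below with no overlap of the libraries, and Slpi overlapped. For all genes tested, 77.0% had no overlap and 81.2% were called in either direction, of which 73.4% were rises (55.1% under median-of-ratios scaling, 49.1% after quantile normalization). In LPS+dNC against LPS, Lyz1, Lcn2, Saa3 and S100a8 lay above and Lyz2, Slpi and Camp below with no overlap, where 53.6% of all genes had no overlap and 57.2% were called. Differences in LPS+dNC were thus common over the whole transcriptome, and nothing is read from these counts of the 7.

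In some libraries several of the 7 genes stood at the same end of their group. LPS replicate 3 was above both of its mates for 7 of 7 genes, from 1.04 times the mates' median for Lyz2 to 1.86 times for S100a8. The share of all genes for which that library was highest is not given, so this count does not set the 7 apart. LPS+CLA replicate 2 was the highest of its group for S100a8 (3.25 times the mates' median), Slpi (2.50 times), Lcn2 (1.90 times) and Saa3 (1.21 times), and below the median of its mates for Lyz1 (0.726 times). LPS+dNC replicate 1 was the lowest of its group for Slpi (0.116 times), S100a8 (0.274 times), Lcn2 (0.910 times) and Saa3 (0.966 times). The same 4 genes were also the lowest of their group in LPS+siAtg5 replicate 3 (0.693 to 0.927 times the mates' median), and LPS+siAtg5 replicate 5 was the highest for Lyz2, Lcn2, Saa3 and S100a8 (1.07 to 1.32 times), though neither library lay apart over all genes. Shared ends were thus also seen outside the libraries that lay apart. The share of all genes at these ends is not given for these libraries either, so these counts do not set the 7 apart. Marker sums also differed in the 3 libraries that lay apart. Astrocyte markers summed to 11.3 FPKM in LPS+CLA replicate 2, against 16.0 to 16.7 FPKM in its mates, and to 6.32 FPKM in LPS+dNC replicate 1, against 31.6 and 20.6 FPKM. Neuron markers summed to 0.90 FPKM in LPS+CLA replicate 2, against 5.97 to 7.77 FPKM, and to 1.92 FPKM in LPS+dNC replicate 1, against 12.2 and 14.2 FPKM. LPS+CLA replicate 2 also had lower sums of monocyte and border macrophage markers (568.4 against 776 to 812 FPKM) and of fibroblast, mural and endothelial markers (19.3 against 34.2 to 36.2 FPKM). The neutrophil marker sum was 161 FPKM in LPS+dNC replicate 1, against 226 and 221 FPKM. In LPS replicate 3 the astrocyte sum was 17.4 FPKM, against 10.9 and 13.5 FPKM, and the microglial sum was 2473 FPKM, against 2951 and 2927 FPKM. Their part in these deviations was not tested.

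**Figure D4:**
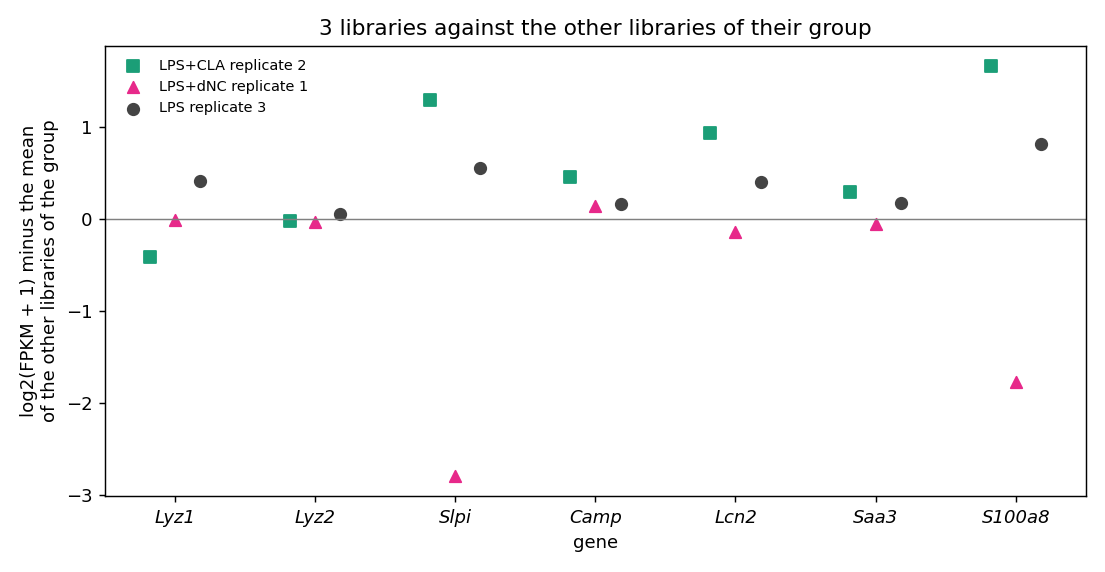
Log2 difference of the 3 libraries that lay apart to the mean of their mates, for each of the 7 genes, on the log2(FPKM + 1) scale. LPS+CLA replicate 2 is above its mates by 1.66 for S100a8 and 0.94 for Lcn2, and LPS+dNC replicate 1 is at -1.77 for S100a8 and -2.79 for Slpi.

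Other genes around these proteins were described from lists. Of 29 other secreted antimicrobial and acute-phase proteins, 14 were tested. In LPS+Baf A1 against LPS 8 rose and 3 fell, in LPS+CLA 5 rose and 5 fell, in LPS+siAtg5 6 rose and 5 fell, and in LPS+CLA against LPS+Baf A1 3 rose and 4 fell. Of all tested genes, 32.7% rose and 25.1% fell in LPS+Baf A1 against LPS. The shares were 40.4% and 22.6% in LPS+CLA and 61.2% and 15.6% in LPS+siAtg5, each against LPS. In LPS+CLA against LPS+Baf A1 they were 35.4% and 19.0%. Beside these backgrounds, nothing is read from the counts of this list or of the lists that follow. Wfdc17, a whey acidic protein domain gene like Slpi, averaged 661 ± 39.5 FPKM in LPS+CLA, 594 ± 37.8 FPKM in LPS+Baf A1 and 435 ± 46.7 FPKM in LPS+siAtg5, against 154 ± 25.3 FPKM in LPS (SD). Its log2 differences to LPS were 2.11, 1.95 and 1.502 (limma adjusted p = 7.21e-15, 1.32e-13 and 2.37e-12), so it did not fall in LPS+CLA as Slpi did. Haptoglobin (Hp), which binds free haemoglobin, averaged 11.9 ± 3.42 FPKM in LPS+CLA and 56.8 ± 2.51 FPKM in LPS+Baf A1, against 11.0 ± 1.02 FPKM in LPS, and like Slpi it was lower in LPS+CLA than in LPS+Baf A1 (log2 difference -2.19, SE 0.145, limma adjusted p = 5.03e-11). C3, the central complement protein, averaged 393 ± 36.1 FPKM in LPS+CLA, 387 ± 9.58 FPKM in LPS+Baf A1 and 261 ± 11.8 FPKM in LPS+siAtg5, against 567 ± 23.2 FPKM in LPS. Its log2 differences to LPS were -0.53, -0.55 and -1.11 (limma adjusted p = 2.29e-05, 2.71e-05 and 3.50e-10). Cfb, of the alternative pathway, averaged 425 ± 76.1 FPKM in LPS+CLA, 851 ± 13.2 FPKM in LPS+Baf A1 and 509 ± 31.2 FPKM in LPS+siAtg5, against 695 ± 21.9 FPKM in LPS. It fell in LPS+CLA and LPS+siAtg5 and rose in LPS+Baf A1, with log2 differences of -0.72, -0.45 and 0.29 (limma adjusted p = 2.22e-07, 0.000123 and 0.00848).

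Of 15 receptors and binding partners, 13 were tested, with 5 rises and 3 falls in LPS+Baf A1, 5 rises and 6 falls in LPS+CLA, 6 of each in LPS+siAtg5, each against LPS, and 4 rises and 6 falls in LPS+CLA against LPS+Baf A1. Tlr4, the LPS receptor that S100A8 can also engage, averaged 18.4 ± 0.712 FPKM in LPS+Baf A1 and 14.6 ± 0.799 FPKM in LPS+siAtg5, against 30.1 ± 4.69 FPKM in LPS. Its log2 differences were -0.67 and -0.99 (limma adjusted p = 6.83e-08 and 4.53e-11). Cd14, the coreceptor of Tlr4, rose to 1269 ± 45.9 FPKM in LPS+Baf A1, against 464 ± 53.2 FPKM in LPS (log2 difference 1.45, SE 0.0884, limma adjusted p = 5.84e-12). It averaged 781 ± 94.2 FPKM in LPS+CLA, also above LPS, and 263 ± 12.1 FPKM in LPS+siAtg5. Fpr2, a formyl peptide receptor known to bind serum amyloid A and cathelicidin, fell to 188 ± 14.5 FPKM in LPS+CLA and 208 ± 8.90 FPKM in LPS+siAtg5, against 411 ± 54.0 FPKM in LPS. Its log2 differences were -1.12 and -0.97 (limma adjusted p = 1.04e-12 and 1.28e-11).

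Of 16 transcription factors known to act on such genes, 14 were tested, with 3 rises and 4 falls in LPS+Baf A1, 4 rises and 8 falls in LPS+CLA, 5 rises and 9 falls in LPS+siAtg5, each against LPS, and 6 of each in LPS+CLA against LPS+Baf A1. Nfkbiz, whose product IkB-zeta is known to be needed for Lcn2 induction, averaged 112 ± 2.86 FPKM in LPS+CLA and 58.0 ± 1.79 FPKM in LPS+Baf A1, against 86.8 ± 1.84 FPKM in LPS. LPS+CLA was above LPS+Baf A1 by 0.93 (SE 0.039, limma adjusted p = 1.45e-14), a direction opposite to that of Lcn2. Nfkb2 fell to 35.9 ± 1.19 FPKM in LPS+siAtg5, against 66.0 ± 3.10 FPKM in LPS (log2 difference -0.86, SE 0.0606, limma adjusted p = 1.91e-11). Cebpa rose to 12.4 ± 0.919 FPKM in LPS+siAtg5, against 1.68 ± 0.397 FPKM in LPS (log2 difference 2.33, SE 0.101, limma adjusted p = 4.11e-15). It averaged 5.57 ± 0.698 FPKM in LPS+dNC, 3.16 ± 0.416 FPKM in LPS+CLA and 2.55 ± 0.209 FPKM in LPS+Baf A1. Cebpa is also expressed outside microglia, and the part of other cells in these levels was not tested.

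For each of the 7, the 2 genes nearest in pattern were found by the root mean square difference of centred log2 values over the 22 libraries. For Lcn2 they were Il27 (0.281) and Sdc4 (0.299), and for Saa3 Inpp5b (0.195) and Socs3 (0.205). Il27 averaged 6.81 FPKM in LPS+siAtg5, against 73.7 FPKM in LPS+dNC, and Socs3 averaged 93.5 FPKM in LPS+siAtg5, against 386 FPKM in LPS+dNC. For Lyz2 they were Maged2 (0.133) and Prpf19 (0.162), for Camp Hspa1a (0.265) and G6pdx (0.271), and for Slpi Osbpl3 (0.703) and Cd1d1 (0.707). For Lyz1 they were Olfr1033 (0.378) and Nupl1 (0.406), which averaged 20.9 and 10.9 FPKM in LPS+dNC and at most 0.134 FPKM in any other group. In all, 6 genes had at least 5 FPKM in every LPS+dNC library and under 0.5 FPKM in every other library. The same count was 16 for LPS+siAtg5 and 0 for each other group, and 0 genes showed the converse in any group. Whether a different gene annotation for LPS+dNC has a part in these patterns was not tested. For S100a8 they were Ece2 (0.849) and Hmga1b (0.857), which averaged 11.7 and 18.3 FPKM in LPS+dNC and at most 0.552 FPKM in any other group. The distances for Slpi and S100a8 were the largest of the 7. This measure also counts differences in size, so a gene of like pattern but smaller or larger changes can lie far off.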

How the data were processed

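Polyadenylated RNA of 22 samples was sequenced on an Illumina instrument. The deposited values are FPKM, per the file headers for 19 libraries; the headers of the other 3 (LPS+dNC) name no unit. The submitters' processing notes name StringTie 1.3.1, HISAT2 (no version), Bowtie2 2.2.8, fastp 0.18.0 and CASAVA 1.7. Strandedness, genome build and gene annotation are not stated. The table held 15726 lines for 15725 symbols (for Plin2, listed on 2 lines, the first was used). No counts were used, so depth is unknown and counting intervals are not given.

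Each library took its group from its title. Values were analysed as log2(FPKM + 1) with limma 3.58.1 in R 4.3.3: 1 mean per group, all 22 libraries in 1 fit (17 residual degrees of freedom, trend and robust options), a floor of 1 FPKM reached in 3 libraries, Benjamini-Hochberg adjustment over 11070 genes and calls at an adjusted p under 0.05. Intervals (95%) come from that fit. The code was tested on simulated data. Alternatives were other pseudocounts, filters and scalings, 2 groups alone, a replicate block and left-out libraries. Sequences were read with Biopython 1.88. The genes and lists were chosen with earlier results of these data known. Genes named from a list are among the 2 with the lowest adjusted p per direction in a comparison without LPS+dNC, and genes of like pattern are the 2 nearest by root mean square difference, leaving out predicted genes. S100a9 is not analysed here.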

Additional observations from a re-analysis of the deposited data

Results flagged for a closer look

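Within groups of 4 to 10 libraries, 5 of 21 combinations of gene and group held a library far from its mates, where chance gives about 1 in 20. In 4 of them it was LPS+CLA replicate 2, the highest of its group. It held 26.0 FPKM of Slpi, a gap to the next library of 0.826 of the whole range. It held 1849 FPKM of Lcn2 (0.930 of the range), 37596 FPKM of Saa3 (0.769) and 19.9 FPKM of S100a8 (0.859), where the limit for 6 libraries is 0.625. The 4 values come from 1 library and are not independent of each other. The other was LPS+siAtg5 replicate 1, the lowest of its group for Lyz1 at 4.09 FPKM, with a gap of 0.788 of the range (limit 0.71 for 5 libraries). LPS+dNC and LPS have 3 libraries each, too few for this rule.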

How the results depend on the processing

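Over 98 alternative counts, the number of genes called in a comparison stayed within 1.5 times its value in the report, and of the values of the 7 genes 623 kept their direction and, where tested, their side of the threshold, 17 passed it anew, 16 lost it, 13 of those without a test moved by more than the replicate spread and 11 turned sign. In LPS+siAtg5 against LPS these were Lyz1 (-0.14 under median-of-ratios scaling, -0.36 after quantile normalization) and Lyz2 (-0.18 under median-of-ratios scaling). After quantile normalization they were also Camp in LPS+siAtg5 against LPS+dNC (-0.23), Lcn2 in LPS+Baf A1 against LPS (-0.10) and Saa3 in LPS+CLA against LPS+Baf A1 (0.06). The uncalled S100a8 differences were the rest. In LPS+Baf A1 against LPS S100a8 was 0.18 without the 3 libraries that lay apart, 0.01 with a replicate block and -0.33 to 0.18 with 1 library left out (0.18 without LPS replicate 3). With 1 library left out it was -0.48 to 0.07 in LPS+CLA against LPS (0.07 without LPS replicate 3) and -0.38 to 0.03 in LPS+CLA against LPS+Baf A1 (0.03 without LPS+CLA replicate 5). Quantile normalization holds Saa3 and Lyz2 at their top ranks, so their differences go to 0.00 there by construction where ranks are equal. Under median-of-ratios scaling 0 rose and 5 fell in LPS+CLA against LPS+Baf A1, where 2883 of all 11070 genes rose and 2818 fell. Without the 3 libraries that lay apart, 6 of 7 genes rose in LPS+Baf A1, 3 rose and 2 fell in LPS+CLA, 3 rose and 2 fell in LPS+siAtg5, each against LPS, and 1 rose and 4 fell in LPS+CLA against LPS+Baf A1. Of all 11070 genes, in the same order, 3768 rose and 3321 fell, 4581 rose and 2923 fell, 6677 rose and 1987 fell, and 4620 rose and 2386 fell. Beside these backgrounds, nothing is read from the counts of the 7. Lcn2 in LPS+CLA against LPS was also called under median-of-ratios scaling (-0.48, limma adjusted p = 0.019). The median of all genes moved from 0.31 to 0.02 with median-of-ratios scaling in LPS+siAtg5 against LPS. Equal replicate numbers did not pair the libraries (20 correlations of deviations, -0.131 to 0.155), and with a replicate block 6031 genes were called in LPS+Baf A1 against LPS in place of 6395, with no call of the 7 genes changed. With a pseudocount of 0.1 the descriptions of Camp grew to 1.40 in LPS+siAtg5 against LPS+dNC and -2.05 in LPS+dNC against LPS. For changes other than these constructions, the cause was not tested. Unknown depth limits Camp most.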
